A study of Mus musculus with 12 samples.

Results

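The chemokine ligands are small secreted or membrane-bound proteins that guide leukocytes. In this series they were taken as every gene whose symbol is Ccl, Cxcl, Cx3cl or Xcl followed by a number, as far as a probe set of the array carries that symbol alone. The rule gave 33 of the 18193 genes measured, with 51 probe sets, and each gene was read from its brightest probe set, by the mean of the 12 arrays. Their mRNA was measured in whole liver on Affymetrix whole-genome mouse arrays, 1 animal per array, as log2 values from RMA (robust multi-array average). The 12 animals formed 4 groups of 3: wild-type mice given vehicle, Atf6a-/- mice given vehicle, wild-type mice given tunicamycin and Atf6a-/- mice given tunicamycin (TM). Tunicamycin, which blocks N-linked glycosylation and so causes endoplasmic reticulum (ER) stress, was injected at 1 mg/kg, the vehicle was 150 mM dextrose, and livers were taken after 34 h, following a short fast that all groups shared. The source field of the labels gives 8 h, whereas the titles and the protocol give 34 h, which is used here. Atf6a-/- mice lack the ER stress sensor ATF6a in every tissue, not only in hepatocytes. Animals were of varying age and of either sex, with neither given per animal.

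Chemokines act through G protein-coupled receptors on leukocytes, and a small set of atypical receptors binds them without classical signalling. CXC ligands with a Glu-Leu-Arg motif, such as CXCL1 and CXCL2, attract neutrophils. CXCL9 and CXCL10 are induced by interferon-gamma and attract T cells through CXCR3, and CCL2 draws monocytes out of the bone marrow through CCR2. CXCL12 and a few others are made without inflammation and place cells in tissues. In liver, hepatocytes, Kupffer cells, stellate cells and the sinusoidal endothelium can all make chemokines, and many inflammatory members are transcribed under the control of NF-kB.

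The upstream sequences of the genes that the results turn on are shown first, because the members of each of 2 pairs of neighbouring genes, Cxcl1 with Cxcl2 and Ccl6 with Ccl9, had unlike calls after TM. The difference between the members of a pair was not tested. RefSeq lists no other gene between the members of either pair. The sequences are from RefSeq for mouse assembly GRCm38.p6, read 5′ to 3′ on the strand of the gene and ending at the base before its start. Capitals mark matches to the letters of an NF-kB site, GGGA and TTCC with any 2 bases between them, together with a further base where the match on the other strand extends it. Cxcl1 (chr5:90890995-90891244, plus strand) and Cxcl2 (chr5:90903649-90903898, plus strand) held the same 11 letters, which began 71 bases before the start of Cxcl1 and 97 bases before that of Cxcl2.
Cxcl1: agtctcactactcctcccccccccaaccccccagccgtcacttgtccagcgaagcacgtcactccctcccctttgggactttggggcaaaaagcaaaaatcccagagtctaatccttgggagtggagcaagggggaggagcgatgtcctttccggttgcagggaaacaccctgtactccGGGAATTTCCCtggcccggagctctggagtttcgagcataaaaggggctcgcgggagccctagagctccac
Cxcl2: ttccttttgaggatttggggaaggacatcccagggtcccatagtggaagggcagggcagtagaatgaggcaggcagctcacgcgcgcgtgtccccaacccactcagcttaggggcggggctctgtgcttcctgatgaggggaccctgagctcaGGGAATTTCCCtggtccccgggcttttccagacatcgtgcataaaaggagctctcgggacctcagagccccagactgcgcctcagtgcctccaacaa
The other matches were in Cxcl3 (chr5:90786003-90786062, plus strand), Cxcl10 (chr5:92349014-92349073, minus strand) and Ccl1 (chr11:82179974-82180033, minus strand), shown as 60 bases around the match.
Cxcl3: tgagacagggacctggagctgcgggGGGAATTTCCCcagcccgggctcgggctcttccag
Cxcl10: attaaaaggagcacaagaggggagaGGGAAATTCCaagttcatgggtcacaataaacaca
Ccl1: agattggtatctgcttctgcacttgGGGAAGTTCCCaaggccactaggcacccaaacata
Of the 33 members, 23 had an entry in the promoter table, with 26 entries in all, and Ccl2 was not among them. The strict NF-kB letters occurred on either strand in the 250 upstream bases of 5 of these 26 entries (19.2%) and in 1.21% of all 32851 entries. A looser form, GGG and TCC with any 4 bases between them, which includes the strict one, occurred in 30.8% of the member entries and in 16.5% of all. Of these 5 genes, Cxcl2 rose in Atf6a-/- livers, Cxcl1 had probe sets that moved in different ways, Cxcl10 was near the threshold, and Ccl1 and Cxcl3 were not called, so the letters were shared by members with unlike values. Ccl6 (chr11:83593088-83593337, minus strand) and Ccl9 (chr11:83578637-83578886, minus strand) held no strict match. The capitals in Ccl9 mark, first, a match to the AP-1 letters TGANTCA and, second, a match to the looser NF-kB letters on the opposite strand. Ccl6 held neither of these.
Ccl6: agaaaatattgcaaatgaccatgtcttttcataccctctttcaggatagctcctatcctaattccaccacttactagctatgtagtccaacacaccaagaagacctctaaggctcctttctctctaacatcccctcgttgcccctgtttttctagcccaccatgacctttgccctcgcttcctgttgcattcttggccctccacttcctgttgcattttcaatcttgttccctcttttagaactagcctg
Ccl9: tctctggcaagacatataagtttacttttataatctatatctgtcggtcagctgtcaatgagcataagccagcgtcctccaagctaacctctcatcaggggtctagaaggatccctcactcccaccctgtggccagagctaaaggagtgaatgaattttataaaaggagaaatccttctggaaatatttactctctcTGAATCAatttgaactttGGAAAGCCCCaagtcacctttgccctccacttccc
A match describes letters in this window and is not a measured binding site.

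The targeted gene was examined before the ligands. The brightest of the 3 Atf6 probe sets had log2 levels of 8.54, 8.42 and 8.49 in the wild-type and 6.88, 6.85 and 6.60 in the Atf6a-/- vehicle group, against 9.30, 9.72 and 9.49 and 9.60, 9.81 and 9.23 after TM. It was thus lower in the animals labelled Atf6a-/- after vehicle (-1.71 ± 0.15, SE, adjusted p = 0.00611), while the other probe sets were not called there (-0.70 ± 0.11 and -0.55 ± 0.14). After TM the brightest did not pass (0.04 ± 0.15, adjusted p = 0.922), and the dimmest of the 3 probe sets was higher in the animals labelled Atf6a-/- (1.43 ± 0.14, adjusted p = 3.03e-05). The deleted part of the gene is not given in the sources used here, and a probe set outside that part checks nothing, so the genotype of the TM arrays rests on their labels. On the first principal component the vehicle arrays lay between -47.3 and -42.8 and the Atf6a-/- TM arrays between 87.0 and 92.8. Wild-type TM animal 2 lay at 21.5, apart from -9.8 and -9.1 for the other two, and results that change without this animal are given both ways. Xist, which marks female animals, had log2 levels of 12.19, 12.39 and 12.29 in animal 1 of wild-type vehicle, Atf6a-/- vehicle and Atf6a-/- TM and of at most 6.68 in the other 9 animals. Signal from the 3′ end of actin minus that from its 5′ end, a sign of RNA integrity, averaged 0.93 in Atf6a-/- TM livers and 1.14 to 1.17 in the other groups, and the spike-in controls averaged 9.35 in wild-type and 9.28 in Atf6a-/- vehicle livers and 8.80 in Atf6a-/- TM livers, with wild-type TM livers in between, values whose part in the results was not tested.

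Most chemokine ligand genes were above the median signal of the arrays in at least 1 group. The medians of the 12 arrays lay between 4.64 and 4.71, and a group mean above 4.71 is called above the array median here. By this measure 26 of the 33 members were above it in at least 1 group (78.8%, against 69% of all genes) and 18 were above it in all 4 groups (54.5%, against 62.6%). The 7 members at or under it in every group were Ccl3, Ccl7, Ccl11, Ccl12, Cxcl3, Cxcl5 and Xcl1, with values of 2.76 to 4.62 over all animals. Just inside lay Ccl20 and Cxcl15, which reached 4.74 in Atf6a-/- vehicle livers, and the nearest outside was Ccl3, with 4.40 in Atf6a-/- TM livers. Ccl2 and Cxcl2 were above the array median only in Atf6a-/- TM livers, with means of 5.43 and 5.95. Ccl27a was the only member above it in the other 3 groups and under it in Atf6a-/- TM livers.

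**Figure D1:**
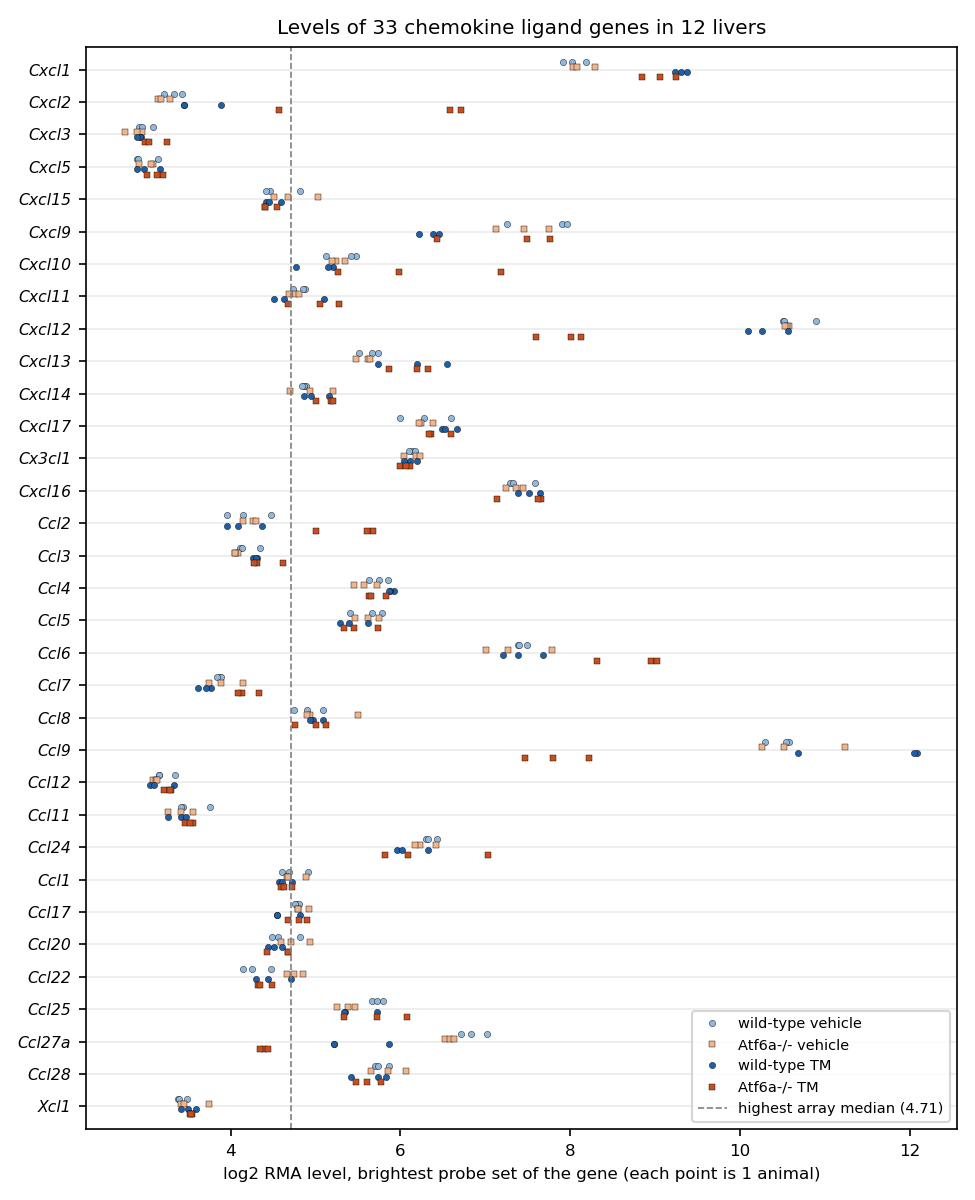
Log2 RMA level (x axis) of the 33 chemokine ligand genes, grouped by role along the y axis, with 1 point per animal, coloured by group, and the highest array median of 4.71 as a dashed line. The 7 genes at or under the line in every group lie between 2.76 and 4.62, while the Atf6a-/- TM animals stand apart from the other groups in Ccl9, Cxcl12, Ccl27a, Ccl6, Ccl2 and Cxcl2.

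Chemokine ligands moved in both directions after TM, and more of them, as of all genes, were called in Atf6a-/- than in wild-type livers. In whole liver, fewer cells of a type and less RNA per cell cannot be told apart. A member was called at limma's Benjamini-Hochberg adjusted p under 0.05 and a change of over 1.5-fold. In wild-type livers TM changed 3 of the 33 members (9.09%, against 7.31% of all genes), with Cxcl1 higher and Cxcl9 and Ccl27a lower (all genes: 3.45% higher and 3.86% lower). In Atf6a-/- livers it changed 7 (21.2%, against 28.0% of all genes): Cxcl1, Cxcl2, Ccl2 and Ccl6 rose and Ccl9, Cxcl12 and Ccl27a fell (all genes: 15.2% and 12.8%). After TM, 7 members differed between the genotypes (21.2%, against 19.7%), of which Cxcl2, Ccl2, Ccl6 and Cxcl10 were higher and Ccl9, Cxcl12 and Ccl27a lower in Atf6a-/- livers (all genes: 11.3% and 8.45%). The response itself differed between the genotypes, by the interaction of genotype and treatment, for 6 members (18.2%, against 14.3%), 3 in each direction (all genes: 7.56% higher and 6.69% lower). These shares lay near those of all genes. The median difference over the members was -0.06 in the wild-type response, 0.10 in the Atf6a-/- response and 0.07 between genotypes after TM, beside -0.02, -0.01 and 0.00 over all genes. These medians have no firm sign, since scaling to the spike-in controls adds 0.35 to every wild-type and 0.48 to every Atf6a-/- response, and scaling to Btf3 and Ppia adds -0.07 and -0.52. The response of Atf6a-/- livers, the difference between genotypes after TM and the interaction share the same 3 Atf6a-/- TM animals and are not independent of each other.

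**Figure D2:**
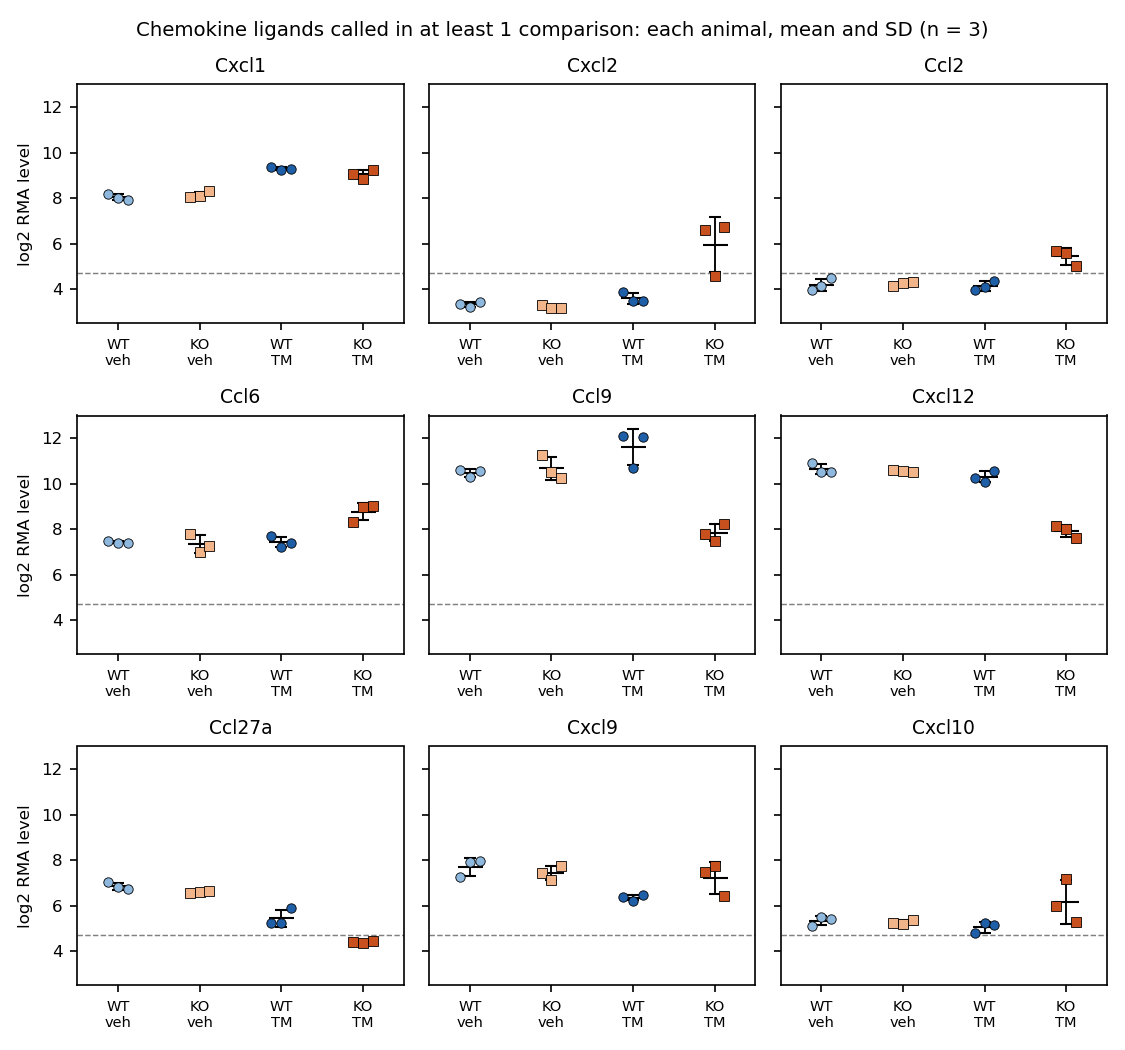
Log2 RMA level (y axis) of the 9 chemokine ligands called in at least 1 comparison, by group (x axis; WT, wild-type; KO, Atf6a-/-; veh, vehicle; TM, tunicamycin), with each animal as a point, the mean and SD of 3 animals as bars and the highest array median of 4.71 as a dashed line. The KO TM animals lie above all other animals in Cxcl2, Ccl2 and Ccl6 and below all others in Ccl9, Cxcl12 and Ccl27a.

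Among the ligands that attract neutrophils, Cxcl2 rose in Atf6a-/- livers and differed in its response between the genotypes. Its levels were 3.33, 3.22 and 3.43 in the wild-type and 3.28, 3.14 and 3.18 in the Atf6a-/- vehicle group, 3.88, 3.45 and 3.45 in wild-type livers after TM, and 6.58, 4.57 and 6.71 in Atf6a-/- livers after TM. All 9 other animals lay under the array median, and Atf6a-/- TM animal 2 lay just under it. The difference to vehicle was 2.75 ± 0.42 in Atf6a-/- livers (SE, adjusted p = 3.10e-04) and 0.26 ± 0.42 in wild-type livers (adjusted p = 0.829; the former was lost with the t-test per probe set that the study's methods name, after adjustment), and the responses differed by 2.48 ± 0.60 (adjusted p = 0.0197). The interaction was lost without wild-type TM animal 3 (2.41, adjusted p = 0.0542) and with a trended, robust prior in limma (2.48, adjusted p = 0.0531). No fold is given for this gene, since the lower groups lay under the array median.

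Cxcl1, the neighbour of Cxcl2 and an attractant of neutrophils through the same receptor, rose in wild-type livers by all of its 3 probe sets, but these disagreed in Atf6a-/- livers. The brightest, 1441855_x_at, read 8.19, 8.02 and 7.92 and 8.03, 8.08 and 8.29 after vehicle, then 9.37, 9.23 and 9.30 in the wild-type and 9.06, 8.85 and 9.25 in the Atf6a-/- TM group. By this probe set Cxcl1 rose 2.38-fold in wild-type livers (1.25 ± 0.12, SE, adjusted p = 1.04e-04). It also rose in Atf6a-/- livers, 1.89-fold (0.92 ± 0.12, adjusted p = 9.00e-05), a call lost on scaling to Btf3 and Ppia. Its interaction did not pass (-0.34 ± 0.17, 95% interval -0.71 to 0.04, adjusted p = 0.292).

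The other probe sets of Cxcl1 rose in wild-type livers only. 1419209_at read 6.91, 7.67 and 7.26 in the wild-type and 7.08, 7.58 and 7.32 in the Atf6a-/- vehicle group, 10.60, 9.85 and 10.53 in wild-type livers after TM, but 6.63, 6.09 and 7.13 in Atf6a-/- livers after TM. It rose 8.3-fold in wild-type livers (3.05 ± 0.28, SE, adjusted p = 7.90e-05), did not pass in Atf6a-/- livers (-0.71 ± 0.28, adjusted p = 0.0861) and differed in response by -3.76 ± 0.40 (adjusted p = 1.58e-04). 1457644_s_at read 10.71, 9.60 and 10.26 in the wild-type and 7.63, 7.21 and 7.69 in the Atf6a-/- TM group, against 7.79 to 8.25 over all vehicle animals, and its interaction was -2.69 ± 0.33 (adjusted p = 3.98e-04). The direction of Cxcl1 in Atf6a-/- livers therefore depends on the probe set, and with the mean of the 3 it did not pass (-0.11, adjusted p = 0.721). The suffixes of the brightest, 1441855_x_at, and of 1457644_s_at both mark probes that may also match other transcripts. Which probe set follows the Cxcl1 transcript was not tested.

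**Figure D3:**
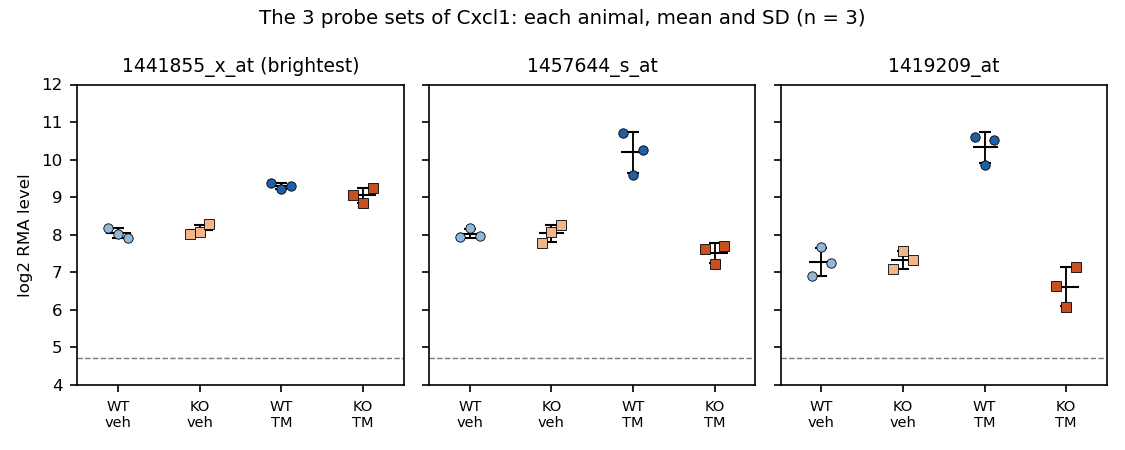
Log2 RMA level (y axis) by group (x axis, abbreviated as WT, KO, veh and TM for wild-type, Atf6a-/-, vehicle and tunicamycin) for the 3 Cxcl1 probe sets, with each animal as a point and the mean and SD of 3 animals as bars. All 3 rise in wild-type TM animals, whereas in KO TM animals 1441855_x_at lies at 8.85 to 9.25 and 1419209_at at 6.09 to 7.13.

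The other ligands of this class gave little signal. Cxcl3 and Cxcl5 stayed under the array median in all animals, and Cxcl15, known mainly from lung, had group means of 4.45 to 4.74 and was not called. The strict NF-kB letters printed above for Cxcl1, Cxcl2 and Cxcl3 therefore stood before 1 gene with conflicting probe sets, 1 gene that rose in Atf6a-/- livers and 1 gene under the array median throughout.

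Among the ligands for monocytes and macrophages, 3 differed between the genotypes after TM. Ccl2, the main monocyte attractant, had levels of 3.96, 4.14 and 4.48 in the wild-type and 4.14, 4.26 and 4.30 in the Atf6a-/- vehicle group, 3.96, 4.09 and 4.37 in wild-type livers after TM, and 5.68, 5.60 and 5.01 in Atf6a-/- livers after TM. The last 3 lay above all other animals. The rise of 1.20 ± 0.18 in Atf6a-/- livers (SE, adjusted p = 3.12e-04) stood beside a difference that did not pass in wild-type livers (-0.05 ± 0.18, 95% interval -0.45 to 0.35), and the interaction was 1.25 ± 0.26 (adjusted p = 0.00918), lost when arrays were scaled to Btf3 and Ppia (adjusted p = 0.102).

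Ccl6, a CCR1 ligand of macrophages and myeloid cells, rose in the same livers. It read 7.49, 7.39 and 7.40 in the wild-type and 7.78, 7.01 and 7.27 in the Atf6a-/- vehicle group, 7.68, 7.21 and 7.39 in wild-type livers after TM and 8.32, 8.95 and 9.02 in Atf6a-/- livers after TM. The increase was 2.65-fold in Atf6a-/- livers (1.41 ± 0.21, SE, adjusted p = 2.86e-04, lost with the methods' t-test after adjustment), while wild-type livers differed by 0.00 ± 0.21 (95% interval -0.46 to 0.47). The interaction was 1.40 ± 0.30 (adjusted p = 0.011), and 1.36 ± 0.37 by the second probe set, 1420249_s_at (adjusted p = 0.0365).

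Ccl9, the gene next to Ccl6 and another CCR1 ligand, moved the other way in Atf6a-/- livers. Its levels after vehicle were 10.58, 10.29 and 10.54 in the wild-type and 11.24, 10.52 and 10.26 in the Atf6a-/- livers. After TM they were 12.09, 10.68 and 12.05 in the wild-type and 7.80, 7.47 and 8.22 in the Atf6a-/- livers, which lay below all other animals. Ccl9 fell 7.18-fold in Atf6a-/- livers (-2.84 ± 0.36, SE, adjusted p = 6.35e-05) and was 13.7-fold lower there than in wild-type livers after TM (-3.78 ± 0.36, adjusted p = 1.98e-05). The interaction of -3.98 ± 0.50 (adjusted p = 4.66e-04) was -4.39 ± 0.54 by the second probe set, 1448898_at (adjusted p = 3.90e-04). The wild-type difference of 1.14 ± 0.36 did not pass (adjusted p = 0.0885). Without wild-type TM animal 2, the array that stands apart, it was 1.60 and passed (adjusted p = 0.00462).

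**Figure D4:**
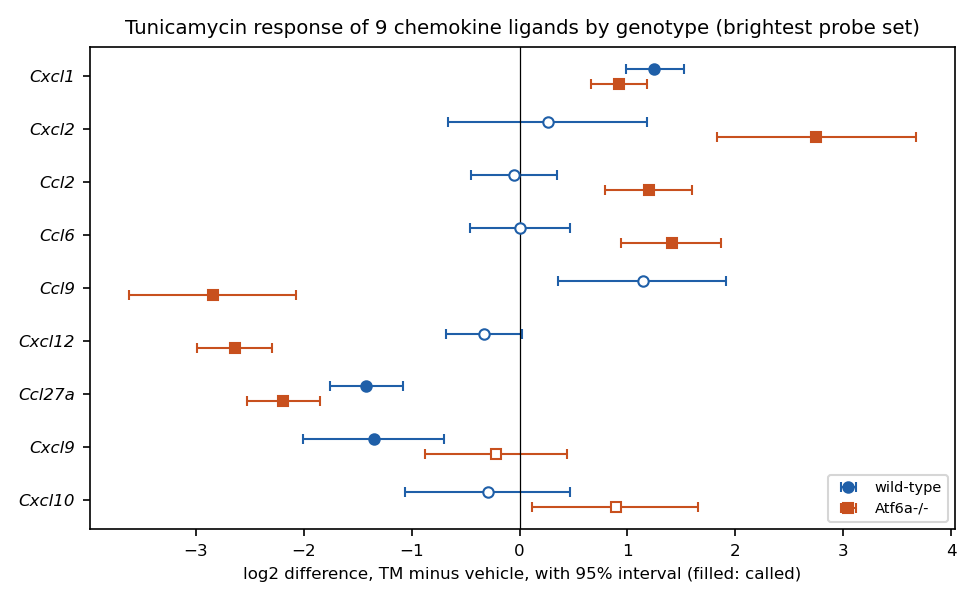
Log2 difference between TM and vehicle (x axis) with its 95% interval for the 9 called chemokine ligands (y axis), in wild-type (circles) and Atf6a-/- livers (squares), 3 animals per group, with filled symbols for differences that were called. Cxcl2, Ccl2 and Ccl6 rise in Atf6a-/- livers only, while Ccl9 lies at 1.14 in wild-type and -2.84 in Atf6a-/- livers.

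The other monocyte and macrophage ligands were not called. Ccl7, which adjoins Ccl2 in the genome and shares its receptor, lay under the array median throughout, with 3.61 to 3.77 in wild-type and 4.09 to 4.33 in Atf6a-/- livers after TM. This difference of 0.49 ± 0.11 had an adjusted p of 0.00778 but was under 1.5-fold. Ccl3 also passed on p alone, in the Atf6a-/- response (0.34 ± 0.11, adjusted p = 0.0313), and Ccl12 stayed at 3.05 to 3.34. Ccl4, Ccl5 and Ccl8 were above the array median in all groups, with means of 5.58 to 5.89, 5.43 to 5.61 and 4.92 to 5.11, and no comparison of them was called.

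Of the CXCR3 ligands, Cxcl9 fell in wild-type livers and Cxcl10 was higher in Atf6a-/- livers after TM, both close to the threshold. Cxcl9 read 7.25, 7.90 and 7.96 in the wild-type and 7.45, 7.13 and 7.75 in the Atf6a-/- vehicle group, 6.38, 6.22 and 6.45 in wild-type livers after TM and 7.49, 7.76 and 6.43 in Atf6a-/- livers after TM. The 3 wild-type TM animals lay below all wild-type vehicle animals, with a 2.56-fold fall (-1.35 ± 0.30, SE, adjusted p = 0.0184). It was lost without wild-type TM animal 2 (-1.29, adjusted p = 0.0559) and without wild-type vehicle animal 2 or 3 (adjusted p = 0.0759 and 0.0806). In Atf6a-/- livers the difference was -0.22 ± 0.30, and the interaction did not pass (1.14 ± 0.43, adjusted p = 0.13). Atf6a-/- TM animal 3 lay near the wild-type TM animals, and without it Cxcl9 was higher in Atf6a-/- than in wild-type livers after TM (1.27, adjusted p = 0.00263) and the interaction passed (1.53, adjusted p = 0.0092).

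Cxcl10 lay between 4.77 and 5.48 in the 9 animals of the other groups and read 5.98, 7.18 and 5.27 in Atf6a-/- livers after TM, the last within the range of the other groups. It was 2.14-fold higher than in wild-type livers after TM (1.10 ± 0.35, SE, adjusted p = 0.0467). This call was lost in 19 of 25 alternatives, and without Atf6a-/- TM animal 2, the highest, the difference was 0.58 (adjusted p = 0.085). The call was lost when any of 11 of the 12 animals was left out, wild-type TM animal 2 among them (1.18, adjusted p = 0.0573). Without Atf6a-/- TM animal 3, the lowest, the Atf6a-/- response passed (1.32, adjusted p = 0.00433), as did the interaction (1.61, adjusted p = 0.0211). Cxcl11 had group means of 4.74 to 5.00 and was not called.

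Cxcl12, which retains CXCR4-bearing cells in tissues and is made without inflammation, fell in Atf6a-/- livers. Its levels were 10.89, 10.51 and 10.52 in the wild-type and 10.58, 10.55 and 10.53 in the Atf6a-/- vehicle group, 10.26, 10.09 and 10.57 in wild-type livers after TM and 8.13, 8.01 and 7.60 in Atf6a-/- livers after TM. The Atf6a-/- TM animals lay below every other animal, and their mean was 5.25-fold lower than in wild-type livers after TM (-2.39 ± 0.16, adjusted p = 1.78e-06). The fall was 6.24-fold in Atf6a-/- livers (-2.64 ± 0.16, SE, adjusted p = 2.46e-07) and did not pass in wild-type livers (-0.33 ± 0.16, 95% interval -0.68 to 0.02, adjusted p = 0.31), and the responses differed by -2.31 ± 0.23 (adjusted p = 9.28e-05). A second probe set, 1448823_at, gave -2.25 ± 0.26 (adjusted p = 2.77e-04), while the dimmest, 1439084_at, lay under the array median with 4.30 to 4.68 and was not called.

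The other homeostatic CXC ligands were not called by their brightest probe sets. Cxcl13, a B cell attractant, had means of 5.64 and 5.58 after vehicle and 6.16 and 6.12 after TM in wild-type and Atf6a-/- livers. Its Atf6a-/- response of 0.54 ± 0.18 passed on p alone (adjusted p = 0.0404), and its dimmer probe set 1417851_at rose in Atf6a-/- livers (1.70 ± 0.44, adjusted p = 0.012) with 1.52 ± 0.44 in wild-type livers (adjusted p = 0.0664). The brightest probe set was called in wild-type livers once TM animal 3 was left out (0.74, adjusted p = 0.018). Leaving out Atf6a-/- TM animal 3 had the same result for that genotype (0.68, adjusted p = 0.0214). Cxcl14 (means of 4.86 to 5.13) and Cxcl17 (6.28 to 6.56) were not called.

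Ccl27a, a ligand of CCR10 known from skin, fell in both genotypes. It read 7.02, 6.83 and 6.71 in the wild-type and 6.53, 6.58 and 6.63 in the Atf6a-/- vehicle group, and 5.22, 5.22 and 5.87 and then 4.39, 4.35 and 4.44 after TM, without overlap between vehicle and TM animals in either genotype. The decrease was 2.68-fold in wild-type livers (-1.42 ± 0.16, SE, adjusted p = 2.50e-04). The difference of -2.19 ± 0.16 in Atf6a-/- livers (adjusted p = 8.72e-07) ended in a TM group under the array median. The interaction of -0.77 ± 0.22 was just past the threshold (adjusted p = 0.0469) and was lost in 12 of 22 alternatives, 9 of which left out a single animal (adjusted p of 0.0166 to 0.245 over the 22). Ccl27a has near-identical copies in the mouse genome, which this probe set may also detect.

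Of the 26 members above the array median in at least 1 group, 17 were called in no comparison. The same share over all genes was not computed. Of the 26, 11.5% were called in the wild-type and 26.9% in the Atf6a-/- response. Of 12041 genes above the array median by their mean over all arrays, 10.9% and 41.0% were. The 26 include Ccl2 and Cxcl2, which were above it only in Atf6a-/- TM livers. Over all 5 comparisons the differences of the 17 uncalled members ran from -0.56 to 0.62, and without the interaction their 95% bounds lay between -0.77 and 0.94. They include both ligands with a membrane-bound form, Cx3cl1 (means of 6.06 to 6.15) and Cxcl16 (7.35 to 7.51), the eosinophil attractant Ccl24 (6.10 to 6.35), and the epithelial ligands Ccl25 (5.36 to 5.73) and Ccl28 (5.62 to 5.85). A dimmer probe set of Ccl28, 1455577_at, was called in the Atf6a-/- response (0.63 ± 0.15, adjusted p = 0.00692). Ccl1, Ccl17, Ccl20 and Ccl22, ligands of CCR8, CCR4 and CCR6, had group means of 4.29 to 4.83, close to the array median. The interaction of Ccl22 was -0.66 and called when animal 2 of either wild-type group was left out (adjusted p = 0.043 for vehicle and 0.0262 for TM), and that of Ccl25 without Atf6a-/- TM animal 1 (0.80, adjusted p = 0.0279). Ccl11, an eosinophil attractant, and Xcl1, the ligand of XCR1, remained under it.

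Without stress no chemokine ligand passed limma's test between the genotypes. After vehicle 0 of 33 members were called, beside 0.00550% of all genes. At an unadjusted p under 0.05 there were 2, both under 1.5-fold: Ccl22, with 4.29 in wild-type and 4.75 in Atf6a-/- livers (0.46 ± 0.12, SE, adjusted p = 1), and Ccl25, with 5.73 and 5.36 (-0.37 ± 0.17, adjusted p = 1). The methods' t-test gave 0 calls as well.

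Few of the receptors for these ligands were above the array median. Of 18 signalling chemokine receptors 16 were measured, 4 were above the array median in at least 1 group, and 0 were called in any of the 5 comparisons. Over all genes 69.0% were above it in at least 1 group and 28.0% were called in the Atf6a-/- response. Their mean level was 4.22 in wild-type vehicle, 4.25 in Atf6a-/- vehicle, 4.22 in wild-type TM and 4.28 in Atf6a-/- TM livers. Of the 5 atypical receptors, Ccrl2 rose in Atf6a-/- livers (5.34 to 6.05, 0.72 ± 0.16, SE, adjusted p = 0.00372) and was higher than in wild-type livers after TM, as was Ackr1, a scavenger of many chemokines (0.70 ± 0.17, adjusted p = 0.0129). Among 3 chemokine genes named outside the symbol rule, Ppbp, a platelet chemokine, fell in Atf6a-/- livers (-0.81 ± 0.25, adjusted p = 0.0289). Its means there were 5.12 after vehicle and 4.31 after TM, the latter under the array median.

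Genes upstream of chemokine transcription are read here beside the 28.0% of all genes that were called in the Atf6a-/- response and the 7.31% in the wild-type response. Of 22 cytokines and receptors that induce chemokines, 3 rose and 3 fell in Atf6a-/- livers, against 1 and 1 in wild-type livers. Only 14 of the 22 were above the array median in at least 1 group. Il1a, Il6, Ifng, Ifnb1, Il17a, Lta, Ltb and Tlr4 were under it in every group, which limits what they can show. The largest rise was that of Cd14, the co-receptor for bacterial lipopolysaccharide, with means of 5.77 after vehicle and 11.39 after TM (5.63 ± 0.37, SE, adjusted p = 4.77e-07). Il18 fell in both genotypes (-1.27 ± 0.25 in wild-type and -1.88 ± 0.25 in Atf6a-/- livers). Of 14 NF-kB factors and feedback targets measured, 0 were called in wild-type livers, while in Atf6a-/- livers 4 rose, among them Nfkbib (1.63 ± 0.18) and Tnip1 (1.35 ± 0.21), and Nfkbia, which encodes the inhibitor IkBa, fell (-0.87 ± 0.17). Of 11 interferon-induced genes measured, 5 fell in wild-type livers and 6 fell and 1 rose in Atf6a-/- livers. Irgm1 fell most in the latter (-2.59 ± 0.24), and Rsad2 rose (0.85 ± 0.25).

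Among the cell marker lists, Kupffer cell, monocyte, hepatocyte and endothelial markers were called more often than the 28.0% of all genes in the Atf6a-/- response. Of 12041 genes above the array median, 41.0% were called in that response, a share that the endothelial markers did not reach. T cell, NK cell and dendritic cell markers were not called in any comparison, but many of them were under the array median in every group. Of 15 Kupffer cell and macrophage markers, 6 fell and 1 rose in wild-type livers and 9 fell and 2 rose in Atf6a-/- livers, and Itgam was under the array median in every group. The mean level of the list was 7.79 to 8.05 and 7.84 to 8.21 after vehicle and 7.25 to 7.65 and 7.34 to 7.82 after TM in wild-type and Atf6a-/- livers. Vsig4 fell most (-2.24 ± 0.30, SE, in Atf6a-/- livers), whereas Cd68 rose there (3.07 ± 0.34). Of 10 neutrophil markers measured, 2 rose in Atf6a-/- livers, where 15.2% of all genes did, S100a8 (4.67 ± 0.44) and S100a9 (3.73 ± 0.54), and S100a8 also rose in wild-type livers (2.31 ± 0.44). The defining markers Mpo, Camp and Cxcr2 were under the array median, and the list mean was 4.75 to 5.02 after vehicle, 5.15 to 5.60 in wild-type TM and 5.43 to 6.05 in Atf6a-/- TM livers.

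Of 5 monocyte markers measured, Chil3 (4.51 ± 0.27, SE), F13a1 (1.30 ± 0.39) and Plac8 (0.82 ± 0.23) rose in Atf6a-/- livers, and Fn1, which hepatocytes also express, fell (-4.05 ± 0.15). Of all genes 15.2% rose and 12.8% fell in that response. Ly6c1 and Ly6c2 were not measured, and Chil3 and F13a1 lay under the array median in the Atf6a-/- vehicle group, with means of 3.41 and 4.35. The mean of the list was 6.84 to 7.17 after vehicle, 6.69 to 7.10 in wild-type TM and 7.25 to 7.58 in Atf6a-/- TM livers. Of the 12 T and NK cell markers measured and the 7 dendritic cell markers measured, 0 were called in any comparison. Only 4 of each list were above the array median in at least 1 group, which limits what they can show. Of 7 B cell markers measured 1, Cd79b, fell in Atf6a-/- livers. Of 6 cholangiocyte markers measured 1, Krt23, rose in wild-type livers, where 3.45% of all genes did. Of 10 hepatocyte markers measured, 8 fell in Atf6a-/- and 2 in wild-type livers, where 12.8% and 3.86% of all genes did. The mean level of these markers was 11.71 to 11.83 in Atf6a-/- TM livers against 12.95 to 13.69 in the other groups. Endothelial and stellate cells are known to make CXCL12. Of 12 endothelial markers 4 and of 12 stellate cell markers 3 fell in Atf6a-/- livers, where 12.8% of all genes did, and 1 of each list fell in wild-type livers. Between genotypes after TM 0 of either list were lower in Atf6a-/- livers, where 8.45% of all genes were. The endothelial marker Fcgr2b was higher there (0.73 ± 0.20, adjusted p = 0.0247). List means were 7.06 in wild-type and 7.11 in Atf6a-/- livers for endothelial and 7.17 and 7.33 for stellate cell markers. The part of these markers in the differences of Ccl9, Cxcl12, Ccl6, Ccl2 and Cxcl2 was not tested.

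**Figure D5:**
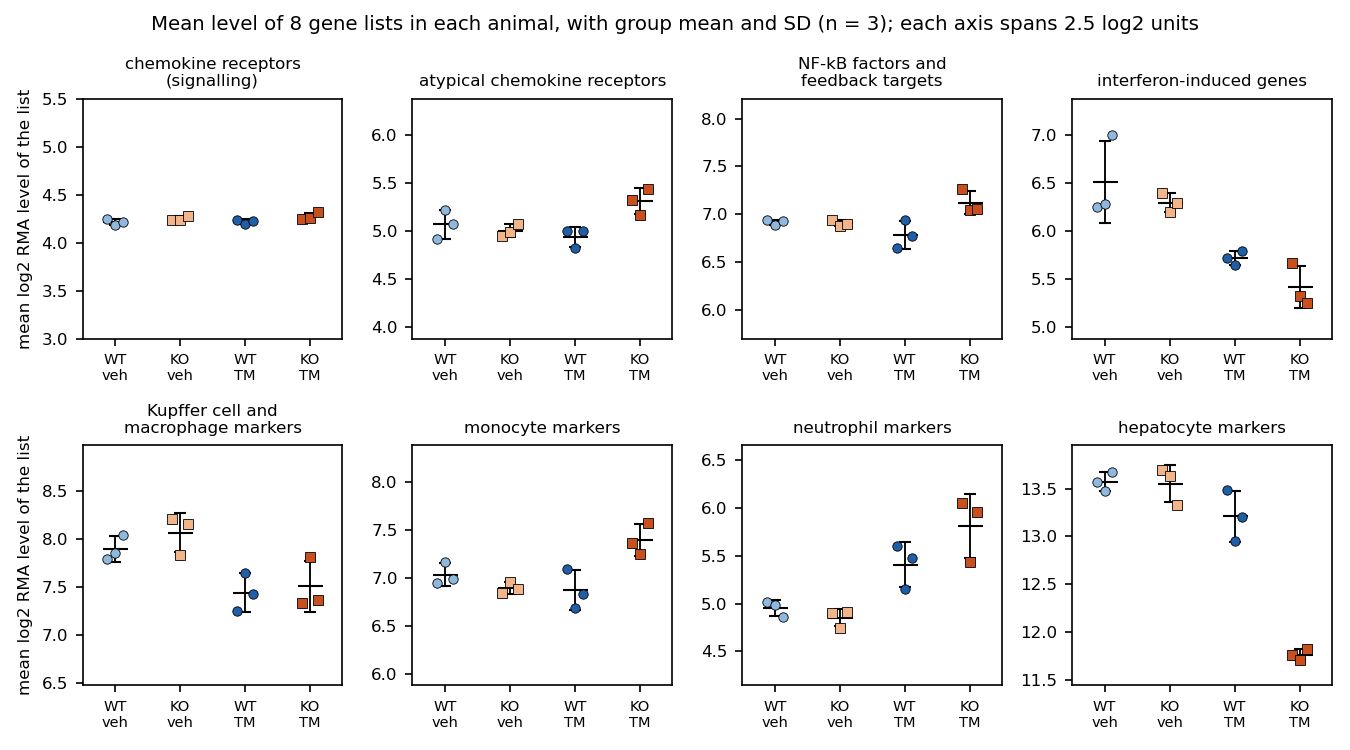
Mean log2 RMA level (y axis, each spanning 2.5 units) of 8 gene lists in each animal, by group (x axis; WT, wild-type; KO, Atf6a-/-; veh, vehicle; TM, tunicamycin), with bars for the mean and SD of 3 animals. The chemokine receptors stay at group means of 4.22 to 4.28, the hepatocyte markers lie at 11.71 to 11.83 in KO TM animals, and the neutrophil markers reach 5.43 to 6.05 there.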

How the data were processed

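RNA from 12 mouse livers was hybridised to 12 Affymetrix arrays, 1 animal each. Values are on the log2 scale as deposited and came from RMA, per the submitters' processing notes, which also name affy and limma without versions. No further normalization was done. RMA's quantile step gives the probe signals of all arrays 1 distribution before they are summarized per probe set. A shift of the whole transcriptome is therefore not seen, and the number of arrays limits the precision. Of 45101 features, 64 control probe sets were left out.

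For 45037 probe sets, limma 3.58.1 under R 4.3.3 fitted the means of the 4 groups and 5 contrasts between them, with two-sided tests and Benjamini-Hochberg adjustment over all probe sets of a contrast. Calls needed an adjusted p below 0.05 and more than the study's 1.5-fold. Intervals are 95%, and the fit was tested on simulated data. No fold is given where a group mean is under the highest array median. That a probe set stands for 1 gene comes from the platform table, and all 33 members matched RefSeq by identifier. The rule for named genes was to give values for every member above the array median in a group or called, and for up to 2 rises and 2 falls of each other list. The members, lists and tests were chosen with earlier results of these data known. Motifs were searched on both strands of the 250 bases before each gene start. Batches of animals or arrays are not given in the sources used here, so p-values measure the spread between these animals. Figures were drawn with matplotlib 3.10.9 under Python 3.11.15, and tables with pandas 2.3.3.

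Alternatives were other normalizations and scalings, a filter on dim probe sets, the mean of a gene's probe sets, limma's trend and robust options, only the groups compared, Xist as a covariate, the replicate number as a block, the methods' t-test and leaving out each animal. Taking any probe set of a gene, or the brightest not ending in _x_at, was chosen after seeing the data. The former gave 3 called members in the wild-type and 9 in the Atf6a-/- response. The latter gave 2 and 5 over 32 members, since Ccl27a has no other probe set.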

Additional observations from a re-analysis of the deposited data

Results flagged for a closer look

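The tunicamycin response differed between Atf6a-/- and wild-type livers, by limma's interaction term, for 6 of the 33 chemokine ligands. As the Atf6a-/- minus the wild-type response on the log2 scale, the values were 2.48 for Cxcl2, 1.40 for Ccl6 and 1.25 for Ccl2, and -3.98 for Ccl9, -2.31 for Cxcl12 and -0.77 for Ccl27a. Further probe sets of these genes differed as well, with 1.36 for Ccl6 by 1420249_s_at, -4.39 for Ccl9 by 1448898_at and -2.25 for Cxcl12 by 1448823_at. For Cxcl1 the response differed by -2.69 with 1457644_s_at and by -3.76 with 1419209_at, whereas the brightest probe set gave -0.34 ± 0.17 (SE), which did not pass.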

How the results depend on the processing

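Of 23 member differences called, 8 kept direction and call under every alternative run, and 49 of 551 single values lost the call or changed sign. The 1 that changed sign was the Atf6a-/- response of Cxcl1, -0.11 with the mean of its probe sets. Scaling to the hybridisation spike-ins moved all genes by 0.35 in the wild-type and 0.48 in the Atf6a-/- response and gave 5 and 19 called members in place of 3 and 7. Scaling to Btf3 and Ppia moved them by -0.07 and -0.52 and gave 15 in the Atf6a-/- response. Members that gained a call there were shifted with all genes by the scaling itself. With the methods' t-test and adjusted p, 0 members were called in the wild-type response, 5 in the Atf6a-/- response, where Ccl6 (adjusted p = 0.0567) and Cxcl2 (adjusted p = 0.0746) lost their calls, and 1, Cxcl12, between genotypes after TM. Without adjustment it gave 3 and 6, and 7 in the Atf6a-/- response. Leaving out each animal gave 2 to 4 calls in the wild-type response, 7 to 9 in the Atf6a-/- response, 6 to 8 between genotypes after TM, 0 to 0 after vehicle and 4 to 7 in the interaction. With the filter on dim probe sets Cxcl2 and Ccl2 were not tested.

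Animals with the same replicate number did not deviate together throughout (10 of 18 pairs correlated over 0.1, range -0.191 to 0.432, against -0.419 to 0.281 for other pairs). A sample correlated best with its own number in 19 of 36 cases, each a choice among the 3 animals of another group. Animal 1 had high Xist in wild-type vehicle, Atf6a-/- vehicle and Atf6a-/- TM livers. Its pairs among these groups correlated at 0.432, 0.264 and 0.242, and the part of sex in this was not tested. These values do not settle whether the numbers pair the animals in part. The number was therefore left out of the main fit and used as a block in an alternative. With the replicate block the calls were 4 in the wild-type response, 7 in the Atf6a-/- response, 7 between genotypes after TM, 0 after vehicle and 6 in the interaction, where Ccl27a lost its call and Ccl25 gained one (0.62, adjusted p = 0.0484). With the block Ccl9 was also called in the wild-type response (1.14, adjusted p = 0.0395). Values near the array median limit what the dim members can show.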
